A study of Mus musculus with 2 samples.

Results

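Among 26683 deposited cell barcodes, 1024 (3.84%) had fewer than 900 genes detected and under 10% of their unique molecular identifiers (UMIs) from mitochondrial genes, that is, genes whose symbol starts with mt-. They were 394 of 10816 barcodes in mouse 1 (3.64%, exact 95% binomial interval 3.30 to 4.01) and 630 of 15867 in mouse 2 (3.97%, 3.67 to 4.29). These barcodes, called low-gene barcodes here, were selected on genes detected and on mitochondrial share, so both values describe the selection and were not tested. They were compared with the 19488 barcodes with 900 to 7700 genes and the same mitochondrial limit (7607 and 11881), called high-gene barcodes. A further 2404 barcodes had fewer than 900 genes and 10% or more mitochondrial UMIs.

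The data are droplet single-cell RNA-sequencing libraries from the dorsal epidermis of 2 male C57BL/6J mice at postnatal day 0 (P0), with 1 library per mouse. Both mice were knockouts (KO, Chrm3-/-) of Chrm3, which encodes the M3 muscarinic acetylcholine receptor, so every barcode carries the KO and no wild-type library was analysed here. The epidermis was separated from the dermis after an overnight incubation, dissociated, filtered and passed through a kit that removes dead cells. The replicate is the mouse (n = 2), and an exact two-sided permutation test of 2 sums against 2 cannot give a p below 0.33. Intervals and limits on single shares cover counting error only.

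In skin, basal keratinocytes (KCs) of the interfollicular epidermis (IFE) divide, leave the basement membrane and become suprabasal cells that make keratins 1 and 10. Granular KCs then make filaggrin, loricrin and late cornified envelope (LCE) proteins and lose their nucleus and organelles as they turn into cornified cells. Epidermis also holds hair follicle and sebaceous KCs, melanocytes, Langerhans cells, T cells and Merkel cells. Fibroblasts, vessels and pericytes belong to the dermis.

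Low-gene barcodes held 505 to 12080 UMIs in mouse 1 (median 861) and 501 to 5892 in mouse 2 (median 793). Their genes numbered at least 189 in mouse 1 (median 518.5) and at least 255 in mouse 2 (median 489). Summed, they gave 449935 and 598469 UMIs, against 95048258 and 148843409 UMIs in high-gene barcodes, whose medians were 10480 and 10577 UMIs. The mitochondrial median was 1.36% and 3.06% in low-gene barcodes and 5.42% and 5.004% in high-gene barcodes. Near the limit, 39 barcodes lay within 50 genes below it and 35 within 50 genes from it up. On the mitochondrial side, the highest share inside was 9.86% and the lowest outside was 10.1%, with 22 barcodes from 9 to 10% and 15 from 10 to 11%.

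Low-gene barcodes were often present in both libraries. The libraries had 127 barcode sequences in common, 1.17% of mouse 1 and 0.800% of mouse 2. Among low-gene barcodes 64 of 394 (16.2%, interval 12.7 to 20.3) and 73 of 630 (11.6%, 9.19 to 14.4) were shared in this way. The same share was 46 of 7607 (0.605%) and 39 of 11881 (0.328%) in high-gene barcodes, and 8 of 1162 (0.689%) and 5 of 1242 (0.403%) in low-gene barcodes with 10% or more mitochondrial UMIs. Shared low-gene barcodes thus made up more than 10% of either library's low-gene barcodes, whereas under 1% of high-gene barcodes were shared.

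Of the shared sequences, 64 were low-gene barcodes in both libraries. Their UMI totals were alike, with a ratio of mouse 2 to mouse 1 from 0.770 to 2.40 and a median of 1.04, and the median mitochondrial share was 4.46% in mouse 1 and 4.55% in mouse 2. Using the classes described next, 55 of the 64 pairs had the same class in both libraries. Another 7 shared low-gene barcodes of mouse 2 had a partner in mouse 1 with over 7700 genes and 140055 to 166176 UMIs. These 7 held 531 to 678 UMIs, 0.379% to 0.419% of the partner's UMIs, and at least 98.3% of their genes were also detected in the partner. They matched all 7 barcodes of mouse 1 with 140055 or more UMIs. Whether shared sequences stand for separate droplets was not tested, so the values that follow are given with these barcodes and, where they matter, without them (330 and 557 barcodes left).

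**Figure D1:**
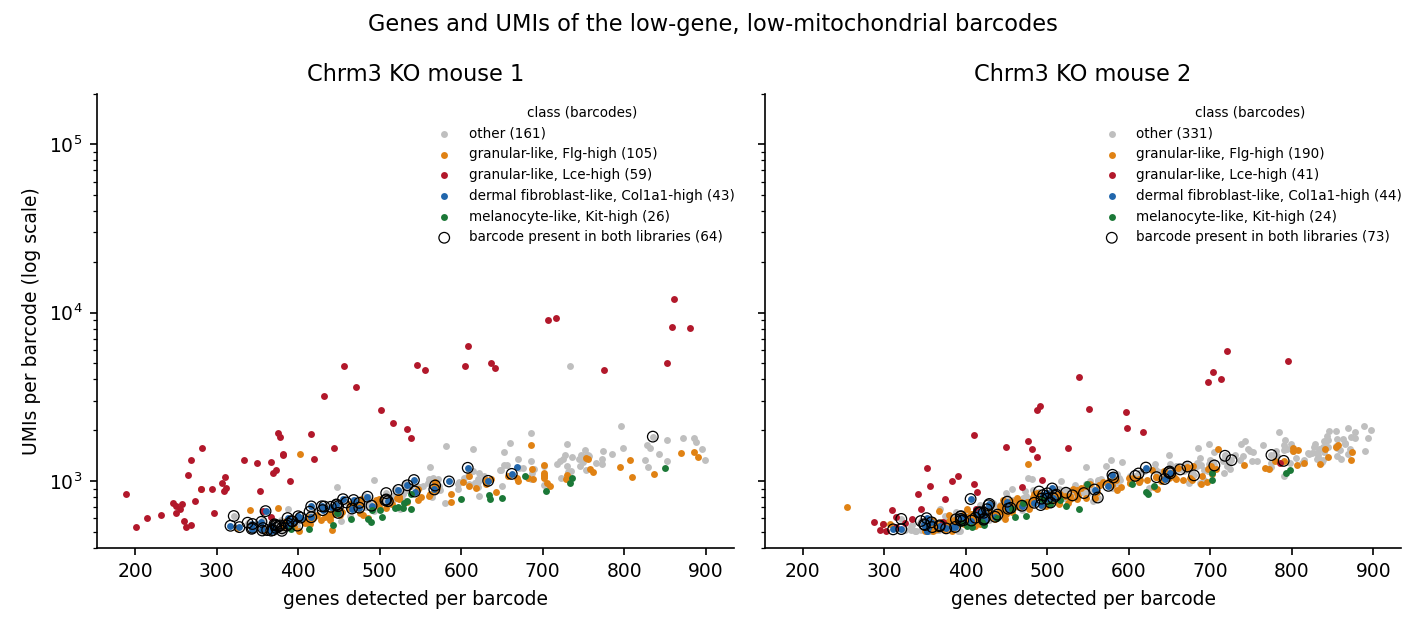
Genes detected (x axis) and UMIs (y axis, log scale) of each low-gene barcode in mouse 1 (394) and mouse 2 (630), coloured by class, with barcode sequences found in both libraries ringed in black. Lce-high granular-like barcodes rise above the other points, up to 12080 UMIs, and most Col1a1-high dermal fibroblast-like points are ringed (39 of 43 and 39 of 44).

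To see which lineages they held, low-gene and high-gene barcodes were each thinned to 500 UMIs, clustered together and named from marker lists, which gave 22 clusters, 13 named classes and 5 unnamed clusters. The limit on markers needed for a name was set after the clusters were seen. Granular-like KCs were the largest class among low-gene barcodes, with 164 of 394 (41.6%) and 231 of 630 (36.7%). In high-gene barcodes the granular-like class was 64 of 7607 (0.841%) and 83 of 11881 (0.699%). The log2 ratio of shares was 5.67 ± 0.30 (SE, edgeR adjusted p = 3.28e-07). Without shared barcodes the granular-like share was 49.7% and 40.9%, and the log2 ratio was 5.87. With names taken from clusters of high-gene barcodes alone the share was 30.5% and 15.1%, and the log2 ratio 5.29.

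Immune and pigment cells were also present. Langerhans and macrophage-like barcodes were 21 (5.33%) and 30 (4.76%) of the low-gene barcodes against 1.89% and 1.62% of high-gene barcodes (log2 ratio 1.52 ± 0.37, adjusted p = 0.00565). Without shared barcodes the log2 ratio was 1.57 (adjusted p = 0.0144). Melanocyte-like barcodes were 46 (11.7%) and 49 (7.78%) against 5.63% and 6.01% (0.72 ± 0.30, adjusted p = 0.0510). None of the low-gene melanocyte-like barcodes was shared, and without shared barcodes the log2 ratio was 0.94 (adjusted p = 0.0383). A count of melanocyte markers without clusters, given with the class names, showed no excess in mouse 2. T cell-like barcodes were 3 and 3. No Merkel-like barcode was found among 394 and 630, which allows a share of up to 0.761% and 0.476%, while high-gene barcodes held 15 and 13.

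By these names the classes of dividing, undifferentiated and suprabasal KCs were scarce. However, a count of markers without clusters, given with the class names, was much closer for dividing markers and opposite for suprabasal ones. Basal IFE-like barcodes were 9 (2.28%) and 25 (3.97%) of the low-gene barcodes against 18.3% and 19.6% of high-gene barcodes (log2 ratio -2.54 ± 0.33, adjusted p = 0.000173). Dividing-like barcodes were 6.35% and 2.70% against 16.9% and 16.1% (-1.95 ± 0.38, adjusted p = 0.00193). Hair follicle progenitor-like barcodes were 0.254% and 1.90% against 5.40% and 5.88% (-2.20 ± 0.55, adjusted p = 0.00565). Suprabasal IFE-like barcodes, the stage between basal and granular KCs, were 1.52% and 2.54% against 6.38% and 6.25% (-1.58 ± 0.37, adjusted p = 0.00563). These classes were lower without shared barcodes too, with log2 ratios of -2.38, -1.86, -2.02 and -1.38. Barcodes of the unnamed clusters were 9.39% and 13.02% against 32.6% and 34.2% (-1.56).

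Because shares sum to 100%, the large granular-like class lowers every other share. Leaving granular-like barcodes out of both groups, the log2 ratio was -1.85 for basal IFE-like (adjusted p = 0.000423), 2.22 for Langerhans and macrophage-like and 1.43 for melanocyte-like barcodes (adjusted p = 0.00163). The suprabasal IFE-like ratio was then -0.89 (adjusted p = 0.110).

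Follicle and gland classes leaned on mouse 2. Upper hair follicle-like barcodes were 4.57% and 9.68% of low-gene barcodes against 4.36% and 2.16% (log2 ratio 1.18 ± 0.46, adjusted p = 0.0449), and sebaceous-like barcodes 1.27% and 4.92% against 1.21% and 1.16% (1.48 ± 0.57, adjusted p = 0.0449). In mouse 1, 9 of 18 and 4 of 5 of these barcodes were shared, and without shared barcodes the adjusted p was 0.117 for both. Clustered without thinning, the upper hair follicle-like log2 ratio turned to -1.71 (adjusted p = 0.00498). With mouse 1 alone the log2 ratios were 0.07 for upper hair follicle-like and 0.07 for sebaceous-like barcodes, and with mouse 2 alone 2.17 and 2.08. By the count of markers without clusters, given with the class names, upper hair follicle markers were more frequent in low-gene barcodes of mouse 1 too.

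Other class calls also depended on the settings. With mouse 1 alone and with mouse 2 alone the log2 ratio was -4.41 and -1.62 for hair follicle progenitor-like, -1.42 and -2.58 for dividing-like and 1.05 and 0.37 for melanocyte-like barcodes. With the mouse as a block 4 named classes passed the test in place of 9: granular IFE-like, dermal fibroblast-like, basal IFE-like and dividing-like. With a mitochondrial limit of 5% for both groups 3 passed, granular IFE-like, dermal fibroblast-like and dividing-like. Hair follicle progenitor-like barcodes, called in the main test, had no value at that limit. The basal IFE-like log2 ratio was then -1.13 (adjusted p = 0.0583) and that of Langerhans and macrophage-like barcodes 0.65 (adjusted p = 0.412). Without thinning the log2 ratio was -4.44 for basal IFE-like, -4.14 for dividing-like and -3.31 for suprabasal IFE-like barcodes. With names taken from clusters of high-gene barcodes alone the dividing-like log2 ratio was -0.99 (adjusted p = 0.0506) and the suprabasal IFE-like 0.49 (adjusted p = 0.364).

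**Figure D2:**
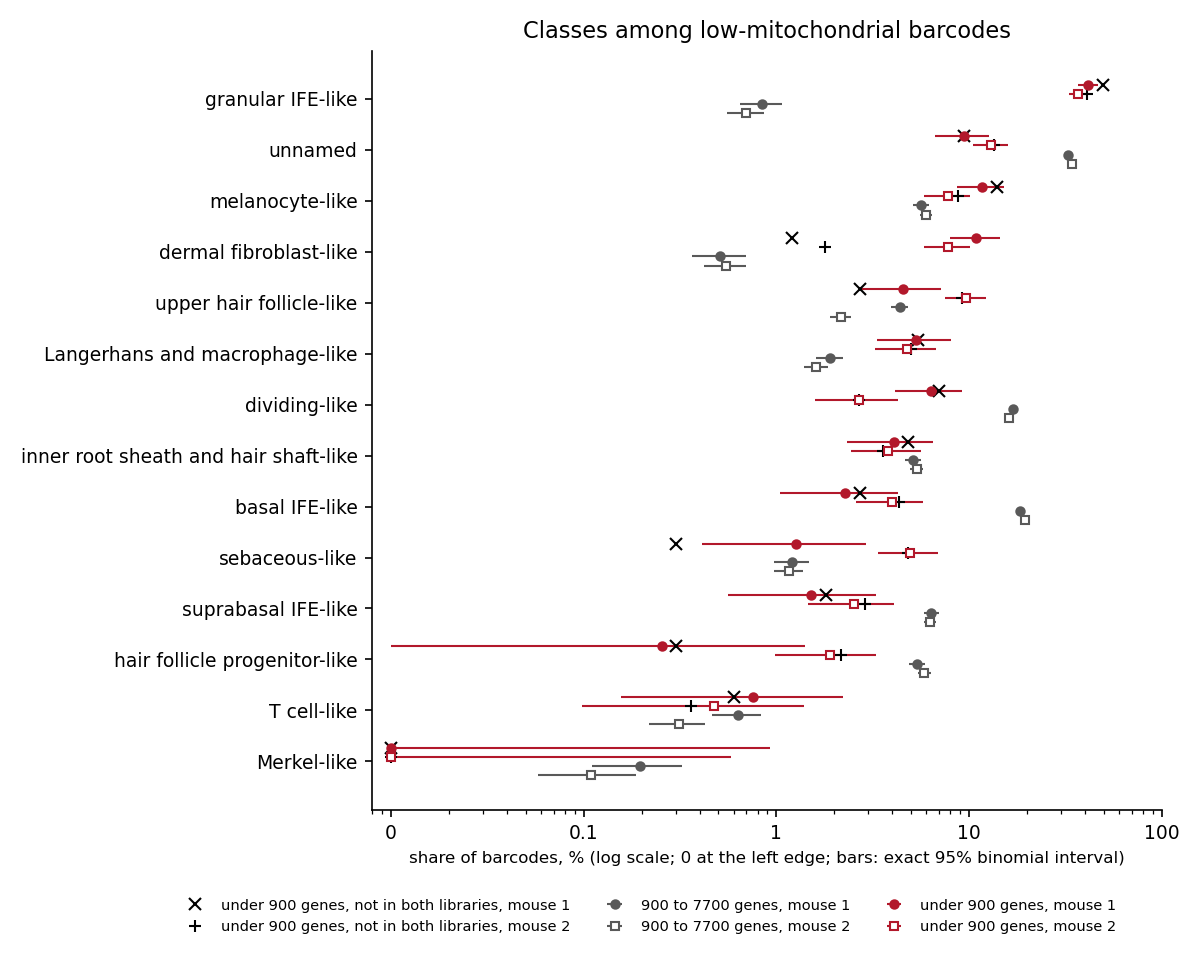
Share of barcodes in each class (x axis, %, log scale with 0 at the left edge) for low-gene barcodes (red), high-gene barcodes (grey) and low-gene barcodes found in 1 library only (crosses), by mouse, with exact 95% binomial intervals. The granular-like share is 41.6% and 36.7% in low-gene barcodes against 0.841% and 0.699%, and the dermal fibroblast-like crosses sit at 1.21% and 1.80%.

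In low-gene barcodes the cluster named inner root sheath and hair shaft-like was not set apart by the summed level of that list. It held 16 (4.06%) and 24 (3.81%) of them against 5.11% and 5.34% of high-gene barcodes (log2 ratio -0.42 ± 0.32, adjusted p = 0.265), and without thinning the log2 ratio was -2.04 (adjusted p = 0.000324). In its low-gene barcodes 8 and 9 of 22 markers were detected. Their summed level was 3082 and 3562 UMIs per 1000000 non-mitochondrial UMIs (CPM), below the 3707 and 5364 CPM of the other low-gene barcodes. Over all low-gene barcodes Lgals7 alone had 2710 and 4702 CPM of the list's 3677 and 5278 CPM, so the sum says little about identity. In 1 barcode of this class in mouse 1, keratin-associated protein genes gave 28.5% of the UMIs. Other classes held their own markers to unequal degrees. The Langerhans and macrophage list summed to 26924 and 22650 CPM in its low-gene class against 148 and 99.6 CPM in the other low-gene barcodes, with 18 of 18 markers detected. The suprabasal list summed to 71757 and 46451 CPM in its class against 32143 and 27135 CPM in the others, a much smaller contrast. The hair follicle progenitor-like class of mouse 1 rested on 1 barcode with 2 of 20 markers detected.

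Class names depended on what was clustered. At resolutions of 0.6 and 1.5 the same name was given to 95.6% and 98.6% of the 1024 low-gene barcodes, with another thinning draw to 85.7%, and without thinning to 75%. When low-gene barcodes took names from clusters of high-gene barcodes alone, 69.5% kept their name and 205 of the 395 granular-like barcodes were still granular-like. The granular-like share was then 120 of 394 (30.5%) and 95 of 630 (15.1%) of low-gene barcodes, against 0.736% and 0.429% of high-gene barcodes.

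A count that needs no clusters matched the class shares for some lists and not for others. After thinning to 500 UMIs, 152 (38.6%) and 183 (29.0%) low-gene barcodes held 3 or more granular markers, against 81 (1.06%) and 85 (0.715%) high-gene barcodes. Of these low-gene barcodes, 151 and 181 were in 1 library only. For the suprabasal list the count ran opposite to the class share, with 78.2% and 76.2% of low-gene barcodes against 26.02% and 36.27% of high-gene barcodes. The inner root sheath and hair shaft list was at 3.30% and 3.17% against 1.17% and 0.901%, also opposite to its class. Dividing markers were at 13.96% and 13.18% against 16.2% and 15.5%, much closer than the class shares. The basal list was at 38.3% and 46.0% against 57.9% and 60.1%. The hair follicle progenitor list was at 3.81% and 7.62% against 10.6% and 9.24%. Melanocyte markers were at 9.14% and 4.76% against 4.44% and 4.85%, an excess in mouse 1 only. Upper hair follicle markers were at 10.7% and 18.7% against 5.60% and 3.85%.

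Granular-like low-gene barcodes fell into a pair of clusters. The smaller, led by LCE genes, held 59 and 41 low-gene barcodes and 34 high-gene barcodes, and none of its 100 low-gene barcodes was shared. LCE genes, which encode cysteine-rich proteins of the cornified envelope, gave 37.6% and 31.4% of their UMIs. Loricrin (Lor), the main protein of that envelope, gave 13.9% and 9.12%. Ribosomal protein genes gave 3.43% and 8.76%, against 28.1% and 29.5% over all high-gene barcodes, and the median mitochondrial share was 0.309% and 0.422%. These barcodes had a median of 1276.5 UMIs but 382.5 genes, and a median of 189 and 230 genes in 500 UMIs. The high-gene barcodes of the same cluster had 330.5 and 315.5 genes in 500 UMIs, with 4.35% and 10.3% of UMIs from LCE genes. This cluster was defined by LCE genes, so these levels describe it and were not tested.

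Barcodes dominated by LCE transcripts were rare elsewhere. LCE genes gave 10% or more of the UMIs in 58 of 394 low-gene barcodes (14.7%, interval 11.4 to 18.6) and 35 of 630 (5.56%, 3.90 to 7.64). In high-gene barcodes this held for 2 of 7607 and 4 of 11881. Among low-gene barcodes with 10% or more mitochondrial UMIs it held for 0 of 1162 and 1 of 1242. The LCE1 genes lie together on mouse chromosome 3 and are near-identical in sequence, so reads may be split between them and the family sum is the firmer value.

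The larger cluster, led by filaggrin (Flg), held 105 and 190 low-gene barcodes and 113 high-gene barcodes. Its low-gene barcodes took 1.98% and 1.52% of UMIs from the granular list and 3.16% and 2.38% from Krt1 and Krt10. In its high-gene barcodes these shares were 5.25% and 3.06%, and 4.25% and 3.34%. LCE genes gave 0.440% and 0.148%, far below the LCE-led cluster. The identity of this larger cluster was less firm. When low-gene barcodes were clustered alone, a choice made after seeing the data, 97 of the granular-like barcodes formed an LCE-led granular-like cluster. Another 166 fell in an unnamed cluster led by Krt6b, Tchh, Krt16, Ivl and Krt1, and 103 in a mixed cluster of 312 barcodes.

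The granular-like share was highest at the lowest gene counts. All 20 and 5 barcodes under 300 genes were granular-like. The share was 46.2% and 39.1% from 300 to below 500 genes, 31.2% and 39.0% from there to below 700, and 36.0% and 23.0% from there to the limit. Just above the limit, from 900 to below 1100 genes, it was 26.1% and 11.9%. It was 19.4% and 4.54% from there to below 1500 genes, 0.875% and 1.16% to below 2000, and 0.258% and 0.392% to below 3000, and higher again at 0.691% and 0.610% from 3000 genes up. The share was thus not steady in its fall, and the 900-gene limit lies within the range of bins where granular-like barcodes were common.

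**Figure D3:**
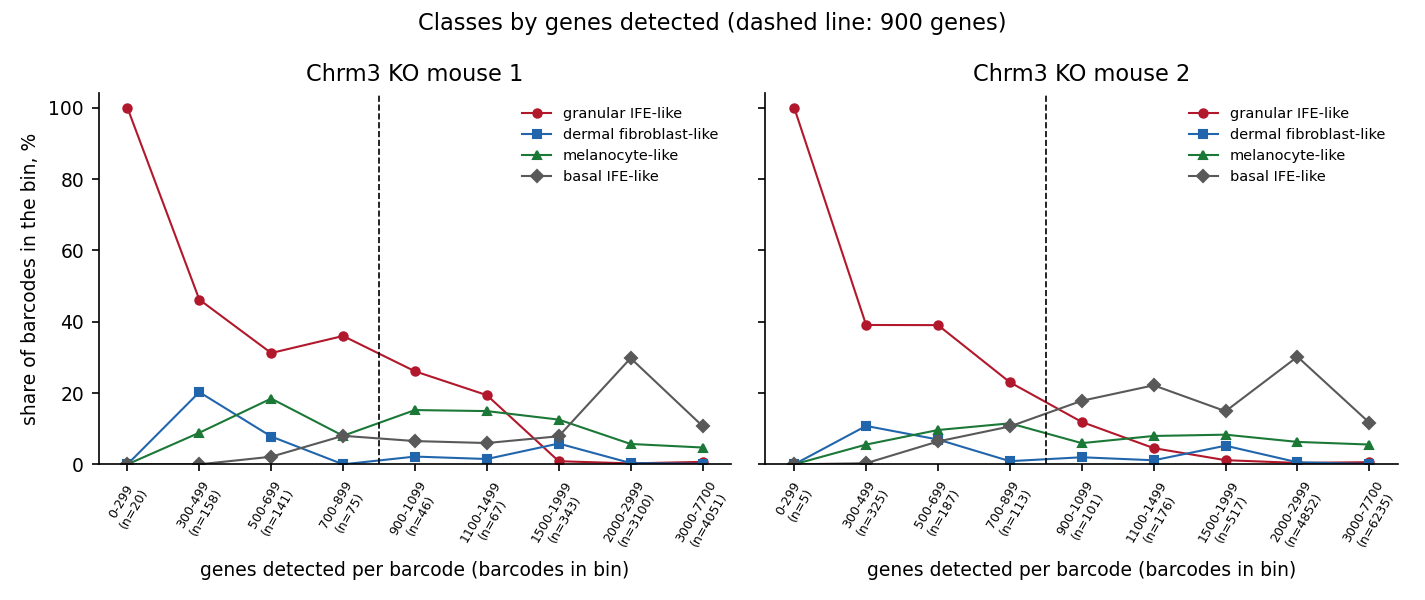
Share of barcodes in 4 classes (y axis, %) by number of genes detected (x axis, bins with the number of barcodes) in each mouse, all under 10% mitochondrial UMIs, with a dashed line at 900 genes. The granular-like share is 100% below 300 genes, lowest at 0.258% and 0.392% from 2000 to below 3000 genes, and 0.691% and 0.610% from 3000 genes up.

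The mitochondrial share also divided the low-gene barcodes. Under 2% mitochondrial UMIs, 123 of 234 (52.6%) and 162 of 260 (62.3%) were granular-like, and 0 and 2 barcodes were shared. From 2 to 10%, 25.6% and 18.6% were granular-like, 25.6% and 11.9% were dermal fibroblast-like, and 64 of 160 (40%) and 71 of 370 (19.2%) were shared. Since the mitochondrial share was part of the selection, this split is a description.

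Melanocyte-like low-gene barcodes also came from a pair of clusters. The main melanocyte cluster held 20 and 25 of them and 1138 high-gene barcodes. A second, led by Kit and Pax3, held 26 and 24 low-gene barcodes and 4 high-gene barcodes. Kit encodes the stem cell factor receptor and Pax3 a transcription factor of the melanocyte lineage. In this second cluster the nuclear RNA Malat1 gave 7.65% and 6.49% of the UMIs of low-gene barcodes and ribosomal protein genes 9.93% and 17.5%. In the low-gene barcodes of the main melanocyte cluster Malat1 gave 0.937% and 0.763%, and ribosomal protein genes 28.3% and 27.1%.

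Dermal cells were counted mostly through shared barcodes. Dermal fibroblast-like barcodes were 43 (10.9%) and 49 (7.78%) of low-gene barcodes against 0.513% and 0.547% of high-gene barcodes (log2 ratio 4.11 ± 0.38, adjusted p = 1.61e-05). Of these, 39 of 43 (90.7%) and 39 of 49 (79.6%) were shared, and all 39 pairs lay in the same cluster. Without shared barcodes 4 (1.21%) and 10 (1.80%) were left, and the log2 ratio was 1.57 (adjusted p = 0.0787). The shallow and deep members lay in different clusters. A Col1a1-led cluster held 87 of the 92 low-gene barcodes and 2 high-gene barcodes, and a cluster led by Ebf1 and Rspo3 held 5 and 102. Within the Col1a1-led cluster the median correlation of log profiles across genes was 0.400 for the 39 same-barcode pairs and 0.335 for 1853 pairs with different barcodes, as a description. In 15 of the 39, the mouse 1 barcode was closest to its own sequence in mouse 2.

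Vessel markers were found in that cluster, mostly in shared barcodes. Clustered alone, 20 low-gene barcodes (10 and 10) formed an endothelial-like cluster, of which 18 were shared. Over all genes, 6 had no UMI in any of the 19488 high-gene barcodes and UMIs in 5 or more low-gene barcodes. They were picked for this absence. Taken as 3 counts, it limits high-gene barcodes with a UMI to 0.0154%, but not the share of cells that express the gene. Rgs5, a pericyte gene, had UMIs in 11 and 14 low-gene barcodes, 57 UMIs in all, and 25 of the 25 were shared. Because Rgs5 was picked for its absence from high-gene barcodes, a fold over them carries no information. No low-gene barcode found in 1 library only had its UMIs. Cdh5, the cadherin of endothelial junctions, had UMIs in 7 and 4 barcodes, of which 10 were shared. Il1rl1, the receptor for interleukin 33, had UMIs in 5 and 8, of which 11 were shared. The others were Higd1b in 9 barcodes, and the endothelial genes Emcn and Esm1 in 6 each. All of these barcodes lay in the dermal fibroblast-like class. In thinned counts 3 or more endothelial markers were found in 7 and 7 low-gene barcodes and 3 or more pericyte and smooth muscle markers in 8 and 13. No high-gene barcode, and no low-gene barcode found in 1 library only, had 3 or more of either.

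To compare genes, UMIs of low-gene and of high-gene barcodes were summed per mouse and tested with edgeR, leaving out the 13 mitochondrial genes. The number of genes that selected the barcodes is a sum over the same counts, so this test is not wholly independent of the selection. Of 14439 genes tested, 585 (4.05%) were higher and 60 (0.416%) lower in low-gene barcodes at an adjusted p under 0.05. Without shared barcodes 389 (2.71%) of 14347 genes were higher and 24 (0.167%) lower, and of the genes called with all barcodes 386 of 585 and 19 of 60 were called in both. Without granular-like barcodes 302 (2.11%) of 14340 were higher and 61 (0.425%) lower. With the mouse as a block 877 were higher and 375 lower.

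The largest rises were LCE genes. Of the 10 largest log2 fold changes under the naming rule, 9 were LCE1 genes and the other was Krtap3-2. Lce1h had 5784.5 and 1769.8 CPM in low-gene barcodes against 4.03 and 6.75 CPM in high-gene barcodes (log2 fold change 9.63 ± 0.82, adjusted p = 0.00218). The groups did not overlap, and mouse 1 was well above mouse 2. Without shared barcodes its log2 fold change was 9.81, and without granular-like barcodes it was 0.40 (adjusted p = 0.916). Krtap3-2, a keratin-associated protein of the hair shaft on chromosome 11 (chr11:99555823-99556853, minus strand, mm10), had 475 and 98.3 CPM against 0.679 and 0.361 CPM (9.27 ± 0.81, adjusted p = 0.00228). Of the 46 low-gene barcodes with its UMIs, 44 lay in the LCE-led cluster, 1 in an unnamed cluster and 1 in the inner root sheath and hair shaft-like cluster. Without granular-like barcodes its log2 fold change was 6.55 (adjusted p = 0.0176), which rests on the barcodes outside the LCE-led cluster.

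Cornification genes were also among the most abundant transcripts. Lor (chr3:92080271-92083142, minus strand, mm10) had 47718 and 12228 CPM against 207 and 188 CPM (7.44 ± 0.79, adjusted p = 0.00409). Low-gene barcodes were far above high-gene barcodes in both mice, and Lor was still higher without granular-like barcodes (2.72, adjusted p = 8.08e-05). Flg, which bundles keratin filaments, had 5540 and 3333 CPM against 385 and 385 CPM (3.68 ± 0.34, adjusted p = 0.00262). Of the 28 granular markers 25 were tested, and 22 were higher and 0 lower with a median log2 fold change of 6.23, against -0.09 over all genes. The 3 without a UMI in low-gene barcodes were Lce3a, Lce3b and Sprr4. The list summed to 153240 and 47656 CPM against 1005 and 948 CPM, and without shared barcodes to 169580 and 52573 CPM with 22 again higher.

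Suprabasal markers were higher in part. Of 17 suprabasal markers 9 were higher and 0 lower (median 1.16), also without shared barcodes, and 2 were higher without granular-like barcodes. Krt10 had 5823 and 6890 CPM against 2742 and 2399 CPM (1.43 ± 0.19, adjusted p = 0.00924), and without granular-like barcodes its log2 fold change was 0.65 (adjusted p = 0.0692). Calm4, a calcium-binding calmodulin-like protein of the epidermis, had 12293 and 4999 CPM against 776 and 642 CPM (3.79 ± 0.50, adjusted p = 0.00885), and without granular-like barcodes its log2 fold change was 0.10 (adjusted p = 0.768). Ly6d, also a suprabasal marker, had 1415 and 2030 CPM against 2094 and 1661 CPM, which overlap.

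Basal and proliferation markers mostly did not pass the edgeR test, while DESeq2 called more of them lower. Krt14, the keratin of basal KCs, had 2855 and 4012 CPM against 6012 and 6865 CPM (log2 fold change -0.79 ± 0.21, adjusted p = 0.0947). Low-gene levels lay below high-gene levels in both mice, as they did for Krt5 and Krt15 (edgeR adjusted p = 0.0986 and 0.0514). Of 17 basal markers Sparc and Postn were higher and Igfbp2 and Cxcl14 lower (median -0.46), and none passed without shared barcodes. Of these 17, 12 had an unadjusted p under 0.05, and DESeq2 called 2 higher and 8 lower. Of 21 dividing markers Cenpf and Hist1h1b were lower and none higher, and 1 was lower without shared barcodes. Of these 21, 9 had an unadjusted p under 0.05, and DESeq2 called 0 higher and 5 lower. Of 19 hair follicle progenitor markers tested Lhx2, Ptch1 and Gpc3 were lower and Bmp2 higher, with 1 lower without shared barcodes. Of these 19, 9 had an unadjusted p under 0.05, and DESeq2 called 2 higher and 6 lower. By edgeR, none of 12 hemidesmosome and basement membrane genes passed (median -0.40), while 5 had an unadjusted p under 0.05 and 2 were lower by DESeq2.

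Hair and gland markers differed by list. Of 20 inner root sheath and hair shaft markers tested 5 were higher, the inner root sheath keratins Krt25, Krt27 and Krt71 with Tchh and Padi3, and 4 without shared barcodes. None of these 5 passed without granular-like barcodes. Among upper hair follicle markers Krt23 and Klk7 were higher, also without shared barcodes, and the list summed to 3935 and 4989 CPM against 4855 and 3640 CPM, which overlap. Without granular-like barcodes Klk7 still passed and Krt23 did not (adjusted p = 0.0609). Of 14 sebaceous markers tested Dgat2, which makes triglycerides, was higher, though not without granular-like barcodes (adjusted p = 0.0973). In 1 barcode of mouse 1, keratin-associated protein genes gave 28.5% of the UMIs and 1360 of the 1571 such UMIs in that mouse's low-gene barcodes.

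Markers of melanocytes and Langerhans cells rose in part. Dct, a melanin-synthesis enzyme, had 541 and 600 CPM against 211 and 285 CPM (1.33 ± 0.20, adjusted p = 0.0141), and Pmel, the melanosome fibril protein, had 204 and 186 CPM against 187 and 224 CPM. Dct was separated between groups, whereas Pmel overlapped. Of 15 melanocyte markers Dct, Kit and Gpnmb were higher, also without shared barcodes. Of 18 Langerhans and macrophage markers 7 were higher, among them Tyrobp, an adaptor of immune receptors, with 235 and 183 CPM against 78.1 and 72.8 CPM (1.59 ± 0.19, adjusted p = 0.00564). Without shared barcodes 6 of 17 were higher. Of 12 T cell markers Thy1 was higher, and none without shared barcodes.

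Dermal, vessel and mast cell markers rested on shared barcodes. Of 12 dermal fibroblast markers tested 11 were higher, and the list summed to 2312 and 1784 CPM against 141 and 143 CPM. Without shared barcodes 3 of 11, Col1a1, Col1a2 and Col3a1, were higher, and the sum was 218 and 267 CPM. Col1a2 had 460 and 347 CPM against 9.95 and 9.67 CPM (5.49 ± 0.23, adjusted p = 0.000219), and without shared barcodes 37.6 and 22.9 CPM (1.79, adjusted p = 0.0475). Endothelial markers had 6 of 10 higher and pericyte and smooth muscle markers 3 of 7, and 0 of 5 in both lists without shared barcodes. Cdh5 and Rgs5 among them had no UMI in high-gene barcodes and passed the filter on low counts through low-gene barcodes alone, so their direction was fixed. The endothelial sum went from 152 and 102 CPM to 22.6 and 24.8 CPM when shared barcodes were left out, against 27.3 and 28.5 CPM in high-gene barcodes. Tagln, a smooth muscle protein, had a log2 fold change of 2.25 with and -1.67 without shared barcodes (adjusted p = 0.0104 and 0.249). Il1rl1, the 1 mast cell marker that passed the filter on low counts, also had no UMI in high-gene barcodes, so its direction was fixed too, and 8 of the 11 mast cell markers measured had no UMI in low-gene barcodes.

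Few markers of blood, nerve, muscle or fat passed. Of the 5 erythroid markers tested Hbb-bs and Hba-a1 were higher, and 345 haemoglobin UMIs, 49.0% of its total, came from 1 barcode of mouse 2. Gng11 was higher of 5 platelet markers and Fabp4 of 4 adipocyte markers, and neither passed without shared barcodes. By edgeR, none of 3 neutrophil, 10 Schwann and nerve, 13 Merkel or 5 skeletal muscle markers tested passed. At an unadjusted p under 0.05 these were 0, 3, 2 and 0, and DESeq2 called 0, 3, 2 and 0. The Merkel list had 8 markers at 0, and its most abundant gene in low-gene barcodes was Chga with 25 UMIs.

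**Figure D4:**
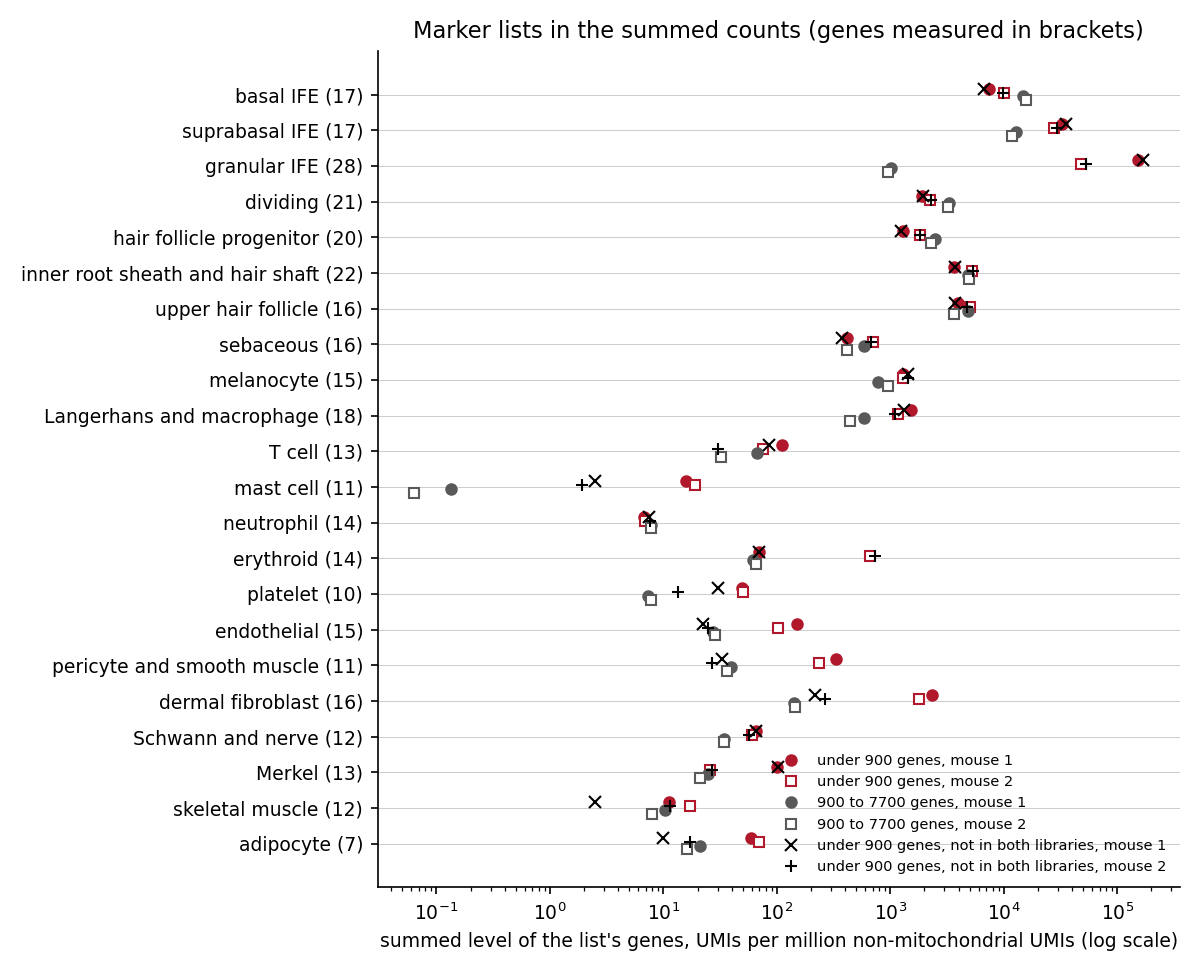
Summed level of each marker list (x axis, UMIs per 1000000 non-mitochondrial UMIs, log scale) in low-gene barcodes (red), high-gene barcodes (grey) and low-gene barcodes found in 1 library only (crosses), for mouse 1 (circles) and mouse 2 (squares). The granular list is at 153240 and 47656 against 1005 and 948, and the endothelial crosses fall to 22.6 and 24.8, beside the high-gene values.

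Of the nuclear-retained RNAs, Gm42418, a transcript that overlaps ribosomal RNA, had 18279 and 14928 CPM against 4735 and 5764 CPM (1.80 ± 0.26, adjusted p = 0.0124), while Malat1 had 10697 and 10669 CPM against 9736 and 10601 CPM (0.20 ± 0.20, adjusted p = 0.628). Of the 9 tested 5 were higher, and 3 of 8 without shared barcodes, with 1 lower. Ribosomal protein genes summed to 169810 and 258350 CPM against 297270 and 310960 CPM. By edgeR, none of the 84 tested passed (median -0.38), while 7 had an unadjusted p under 0.05 and 7 were lower by DESeq2. Nuclear genes of oxidative phosphorylation summed to 17550 and 22602 CPM against 24666 and 26234 CPM. Of 88 tested, 22 had an unadjusted p under 0.05, and DESeq2 called 4 higher and 10 lower. By edgeR, Cox4i2, Ndufa4 and Ndufa4l2 were higher and none lower (median -0.27), a share below the 4.05% of all genes called higher. A list with 1 call in about 12 to 18 members likewise lies near that background and is not a result about the list.

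Heat shock and interferon lists had the most calls among stress genes. Of 12 heat shock genes Hspa1a, Hspa1b, Hsph1 and Hspb1 were higher, and none without shared barcodes. Of 10 interferon-induced genes Ifi27l2a, Irf7, Bst2 and Ifitm3 were higher, and Irf7 alone without shared barcodes. Of 18 immediate early genes Ier3 was higher, and none without shared barcodes. Of 18 desmosome and tight junction genes Dsg1a, Dsc1 and Evpl were higher, which encode cadherins and an envelope protein of upper IFE layers, and none of the 3 passed without granular-like barcodes. Of 13 apoptosis genes the cell cycle inhibitor Cdkn1a was higher, with 174 and 174 CPM against 105 and 92.2 CPM (0.95 ± 0.14, adjusted p = 0.0144), and without granular-like barcodes its log2 fold change was 0.35 (adjusted p = 0.614). Of 13 cathepsin and lysosome genes Ctsd and Ctss were higher, and of 15 stefin and S100 genes Stfa2 and Csta1. By edgeR, none of 12 glycolysis genes passed, while 2 had an unadjusted p under 0.05 and 1 was higher by DESeq2.

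The 10 smallest log2 fold changes were modest. They ran from -1.56 for Crls1, the cardiolipin synthase of mitochondria, to -1.28 for Tnrc18. Crls1 had 9.06 and 10.4 CPM against 31.7 and 30.8 CPM (SE 0.27, adjusted p = 0.0260), which is 10 UMIs in all low-gene barcodes. The others were Mms22l, Dnph1, Ackr4, Pecr, Alkbh3, Cacfd1, Pdzd8 and Col27a1, with 11 to 29 UMIs each or, for Mms22l, 10. Without shared barcodes Mms22l, Cacfd1, Pdzd8, Col27a1 and Tnrc18 still passed.

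Comparisons within a class hold the lineage more nearly constant. They were made for the 4 classes with at least 20 barcodes of each kind in each mouse, over 6636 genes. In granular-like barcodes 248 genes (3.74%) were higher and 65 (0.98%) lower in low-gene barcodes. With barcodes chosen by UMIs (under 2000) in place of genes, 51 were higher and 83 lower. LCE genes and Krtap3-2 led the rises. Lce1h had 11047 and 4579 CPM against 270 and 574 CPM (log2 fold change 4.82 ± 0.47, adjusted p = 1.33e-06). Of 23 granular markers tested 16 were higher, and Ivl, Klk5 and Sprr1b lower. Of 8 inner root sheath and hair shaft markers tested Krt25, Krt27, Krt71 and Tchh were higher in this class too. Sprr1b, a small proline-rich envelope precursor, had 0 and 17.9 CPM against 576 and 159 CPM (-5.00 ± 0.87, adjusted p = 0.000797). The LCE-led cluster was defined by LCE genes. It holds 100 of the 395 low-gene and 34 of the 147 high-gene barcodes of this class, a similar part of each. Within it LCE genes gave a larger share of UMIs in low-gene than in high-gene barcodes, as given with that cluster. The LCE rise is therefore a description. How far the selection on few genes sets it was not tested. Of 15 suprabasal markers tested Lypd3, Ly6g6c, Serpinb5 and Klf4 were lower and none higher.

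In melanocyte-like barcodes 55 genes (0.829%) were higher and 60 (0.904%) lower, and 88 and 154 with the mouse as a block. Without shared barcodes 36 of 8883 genes were higher and 43 lower. KC genes led the rises. Flg had 1896 and 2024 CPM against 138 and 205 CPM (3.18 ± 0.45, adjusted p = 0.000364), and Krt10 5201 and 6806 CPM against 857 and 808 CPM (2.53 ± 0.36, adjusted p = 0.000364). Of 15 suprabasal markers 10 were higher, and of 7 nuclear-retained RNAs 5, including Malat1, Neat1 and Gm42418. Of 14 melanocyte markers Mlana and Trpm1 were lower. Eny2, Leprotl1 and Snx2 had no UMI in low-gene melanocyte-like barcodes against 65.1 to 105 CPM in high-gene ones. In these low-gene sums 1 UMI is 27.1 and 23.0 CPM, so a count of 0 lies near the detection floor. The Kit-led cluster holds 50 of the 95 low-gene and 4 of the 1142 high-gene barcodes of the class. With size factors from relative log expression the split was 127 higher and 0 lower, since that scaling moved the median of all genes from -0.29 to 0.19.

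In Langerhans and macrophage-like barcodes 15 genes (0.226%) were higher and 2 (0.0301%) lower, and 27 and 23 with the mouse as a block. Without shared barcodes 7 of 8883 genes were higher and 3 lower. Krt10 had 4327 and 7247 CPM against 745 and 881 CPM (2.27 ± 0.37, adjusted p = 0.00232), and Krt1 2710 and 4807 CPM against 510 and 630 CPM (2.16 ± 0.37, adjusted p = 0.00510). The lower genes were S100a4, a calcium-binding protein (87.4 and 72.8 CPM against 541 and 329), and the immediate early gene Fos (350 and 218 CPM against 1050 and 580). Of 12 heat shock genes Hspa1a, Hspa1b, Hsph1 and Hspb1 were higher. With the other size factors 22 were higher and 0 lower, with a median of -0.31 in place of -0.80.

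In dermal fibroblast-like barcodes 312 genes (4.7%) were higher and 255 (3.84%) lower, which compares the Col1a1-led with the Ebf1-led cluster and, on the low-gene side, mostly shared barcodes. With the other size factors 348 were higher and 187 lower. Igfbp7, a protein of vessel walls and matrix, had 4799 and 3880 CPM against 31.3 and 32.1 CPM (7.03 ± 0.41, adjusted p = 1.33e-10). Markers of other cell types and stress genes moved with this class: 8 of 8 endothelial, 3 of 5 pericyte and smooth muscle and 4 of 21 dividing markers tested were higher, and 10 of 12 heat shock genes. Among them Cdh5 and Rgs5 had no UMI in any high-gene barcode, so their direction was fixed and their calls carry no information. The part of these markers in the other differences was not tested. Edn3, Gdf10, Lrrn1, Frem1 and Hey2 had no UMI in low-gene barcodes against 263 to 563 CPM. Without shared barcodes too few were left (4 and 10) for this comparison.

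The change from high-gene to low-gene barcodes was also compared between classes, leaving out the dermal class because its members lie in different clusters. Melanocyte-like barcodes were kept, although the Kit-led cluster holds 50 of the low-gene and 4 of the high-gene ones. Comparisons with that class therefore also contrast clusters. The log2 fold change was greater in granular-like than in Langerhans and macrophage-like barcodes for 15 of 6636 genes (0.226%) and smaller for 11 (0.166%). Against melanocyte-like barcodes it was greater for 44 (0.663%) and smaller for 33 (0.497%). Without shared barcodes 8883 genes were tested, and the counts were 42 greater and 7 smaller against Langerhans and macrophage-like barcodes, and 50 greater and 29 smaller against melanocyte-like barcodes. For Langerhans and macrophage-like against melanocyte-like barcodes 0 genes passed in either direction, with or without shared barcodes.

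Krt1 and Krt10 transcripts were found across lineages of low-gene barcodes. They gave 0.800% and 1.11% of UMIs in low-gene melanocyte-like barcodes against 0.118% and 0.134% in high-gene ones, and 0.688% and 1.18% against 0.120% and 0.145% in Langerhans and macrophage-like barcodes. T cell-like barcodes had 0.405% and 0.595% against 0.0748% and 0.136%, from 3 low-gene barcodes a mouse, and basal IFE-like barcodes 0.562% and 0.412% against 0.0855% and 0.152%. Low-gene values were above high-gene values in each of these classes and in both mice. In suprabasal IFE-like barcodes the shares were 4.66% and 2.50% against 3.89% and 3.40%, which overlap. Granular-like low-gene barcodes had 1.38% and 1.92% against 3.46% and 2.87%. In the Col1a1-led cluster, mostly shared barcodes, the share was 0.167% and 0.203%, and over all shared low-gene barcodes 0.0826% and 0.227%. Whether free RNA in the droplets contributes to these shares was not tested.

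**Figure D5:**
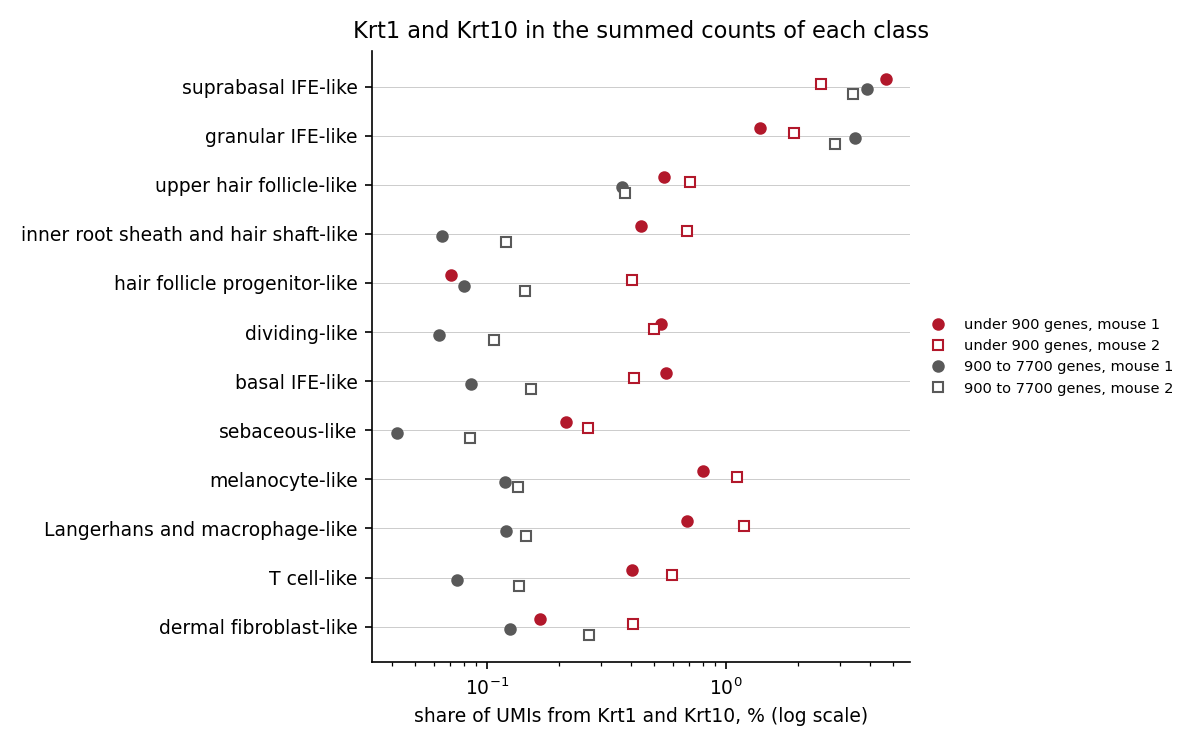
Share of UMIs from Krt1 and Krt10 (x axis, %, log scale) in the summed counts of each class, for low-gene (red) and high-gene (grey) barcodes of each mouse. In melanocyte-like, Langerhans and macrophage-like, T cell-like and basal IFE-like barcodes the low-gene points lie to the right of the high-gene points in both mice, and in granular-like barcodes to the left.

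Low-gene barcodes with 10% or more mitochondrial UMIs differed from those under the limit in some genes and overlapped with them in others. Lor was at 1601 and 949 CPM there, against 47718 and 12228 CPM in low-gene barcodes under the mitochondrial limit, and the granular list summed to 8106 and 6899 CPM. Malat1 was at 76169 and 74074 CPM there against 10697 and 10669 CPM. Col1a1 was at 6.66 and 6.61 CPM against 758 and 495 CPM, and Cd74, the invariant chain of antigen-presenting cells, at 33.3 and 26.5 CPM against 439 and 209 CPM. Values overlapped for Krt10 (6860 and 10005 CPM against 5823 and 6890 CPM), Flg (4105 and 3956 CPM against 5540 and 3333 CPM), Krt1 (3697 and 6293 CPM against 4727 and 5170 CPM), Gm42418 (16257 and 14841 CPM against 18279 and 14928 CPM) and the suprabasal list (19518 and 28268 CPM against 32708 and 27605 CPM). These groups were separated by the mitochondrial rule itself, so their levels are set side by side without a test.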

How the data were processed

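The authors deposited UMI count matrices from Cell Ranger 3.0.2 on mm10, per the labels, as whole-number counts of 27998 genes without normalization. The labels name Chromium version 1 chemistry and the study's methods a later version. Barcodes were grouped by genes detected and mitochondrial share. Members and gene lists were chosen with earlier results of these data known. Each barcode was thinned to 500 UMIs, log-normalized and clustered by Louvain at resolution 1 on 2000 variable genes without mitochondrial genes, 30 principal components and 20 neighbours (igraph 0.11.9, Python 3.11.15). Clusters were named by 22 marker lists. A name needed 3 markers among the 10 leading genes, or 2 with a mean log2 enrichment of 1 or more over the list. Counts summed per mouse were tested with edgeR 4.0.16 (R 4.3.3; TMM, filterByExpr, glmQLFit, glmQLFTest), and class counts in the same way with the barcode total as library size, with Benjamini-Hochberg adjustment and a threshold of 0.05. CPM is UMIs per 1000000 non-mitochondrial UMIs. The tests were checked on simulated data, and the outcome is not given here.

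Doublets were kept: Scrublet in scanpy 1.11.5 marked 2 of 7607 and 475 of 11881 high-gene barcodes, so the call did not work in mouse 1. Same-numbered sums come from the same mouse, so the mouse was used as a block in an alternative. The correlation of same-mouse deviations from group means was 0.04 for pooled sums, 0.14 for granular-like, 0.06 for melanocyte-like, 0.02 for Langerhans and macrophage-like and -0.01 for dermal fibroblast-like sums. Named genes were the 10 largest and 10 smallest log2 fold changes among called genes with the same direction in both mice and 50 UMIs or more in each mouse of the higher group, the 10 most abundant genes, the 3 most abundant members of each of the 22 marker lists and 12 gene lists, and 5 in each direction within a class. The alternatives that left out shared, granular-like or LCE-led barcodes, summed thinned counts or clustered low-gene barcodes alone were added after seeing the data. Other genes named were chosen after their values were seen. Coordinates are from GENCODE M21 (mm10), which held 27722 of the identifiers. Results for some list members are not reported here.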

Additional observations from a re-analysis of the deposited data

Results flagged for a closer look

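The genes called in the test of the difference between granular-like and Langerhans and macrophage-like barcodes numbered 26 of 6636, and those between granular-like and melanocyte-like barcodes 77. Without shared barcodes, of 8883 genes, 42 had the greater and 7 the smaller fold change in granular-like than in Langerhans and macrophage-like barcodes, and 50 and 29 against melanocyte-like barcodes. Among genes named within these classes 6 such differences passed, by an edgeR test of the difference itself. The log2 fold change of Krt10 was lower in granular-like than in Langerhans and macrophage-like barcodes by a difference of -2.75 (SE 0.50, adjusted p = 0.00816), and that of Krt1 by -2.87 (SE 0.50, adjusted p = 0.00582). Between granular-like and melanocyte-like barcodes the difference was -3.99 for Flg (SE 0.60, adjusted p = 0.000841), -6.52 for Dkkl1 (SE 1.35, adjusted p = 0.0170), -3.00 for Krt10 (SE 0.49, adjusted p = 0.00236) and -3.33 for Krt1 (SE 0.50, adjusted p = 0.000841). The Kit-led cluster holds 50 low-gene and 4 high-gene melanocyte-like barcodes, so these differences also contrast clusters. Without shared barcodes the same differences were -2.59 and -2.73 for Krt10 and Krt1 against Langerhans and macrophage-like barcodes, and -3.87, -6.38, -2.88 and -3.22 for Flg, Dkkl1, Krt10 and Krt1 against melanocyte-like barcodes, each with an adjusted p under 0.05.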

How the results depend on the processing

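The share of low-gene barcodes was 3.81% as a mean of mice (3.64% and 3.97% with 1 mouse each). It was 3.10% with a limit of 700 genes, 4.34% with 1100 genes, 3.00% with 5% mitochondrial UMIs and 3.28% without shared barcodes. The 645 genes called in the pooled sums, of 14439 tested, became 1207 with no filter on low counts and 1912 by DESeq2, each of 20532. They became 1252 of 14439 with the mouse as a replicate block. Without shared barcodes 413 of 14347 were called, and without granular-like barcodes 363 of 14340. Leaving out shared or granular-like barcodes was chosen after seeing the data. Within classes the main fit and the block tested 6636 genes, and no filter and DESeq2 17709. The other settings tested 5285 at 700 genes, 5930 at 5%, 6553 by UMIs, 8883 without shared barcodes and 900 when thinned. A lower count of calls is therefore not always a lower share. Within Langerhans and macrophage-like barcodes the 17 genes became 50 with the block, 150 with no filter, 61 by DESeq2 and 10 without shared barcodes. There too few barcodes were left at 700 genes or 5%. Within dermal fibroblast-like barcodes the 567 became 343 at 5% mitochondrial UMIs and 221 with every barcode thinned to 500 UMIs. Within granular-like barcodes the 313 became 148 at 700 genes, 203 at 5%, 134 with members chosen by UMIs (51 higher, 83 lower), and 9 of 900 genes tested when thinned. Within melanocyte-like barcodes the 115 became 242 with the block, 263 with no filter, 654 by DESeq2, 34 at 700 genes, 70 at 5% and 61 when thinned. The 9 called class shares became 3 at 5%, where hair follicle progenitor-like barcodes had no value, and 4 with the block, as named with the shares. The dermal fibroblast-like log2 ratio was 1.57 without shared barcodes. With 1 mouse each the log2 ratio ran from 5.63 to 5.71 for granular-like, 3.83 to 4.41 for dermal fibroblast-like, -3.00 to -2.30 for basal IFE-like, -2.07 to -1.30 for suprabasal IFE-like and 1.49 to 1.56 for Langerhans and macrophage-like barcodes, and more widely for the classes named with the shares.

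Some directions turned. The inner root sheath and hair shaft-like log2 ratio was 0.28 without granular-like barcodes, the suprabasal IFE-like 0.49 with names from high-gene clusters, the upper hair follicle-like -1.71 without thinning, and the T cell-like -2.29 without thinning, -0.90 at 5% and -0.034 without shared barcodes. Without shared barcodes Tagln was at -1.67, Postn at -0.64 and Ifitm3 at -0.72. The cause was not tested. Of 756 alternative values for the 78 named gene results that passed, 654 kept direction and call, 99 lost the call and these 3 reversed. Named genes that did not pass are outside this tally, and some of them changed sign. Without shared barcodes Ramp2 went from 1.14 to -0.10 and Hsp90aa1 from 0.15 to -0.31. Without granular-like barcodes Jund went from 0.19 to -0.46. The block lost no named gene's call. Gene counts without 1 mouse could not be fitted, since no residual degrees of freedom are left. Low-gene sums of 449935 and 598469 UMIs limit what can be detected in genes of low level.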
